A study of Homo sapiens with 4 samples.

Results

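hsa-miR-21-3p and hsa-miR-34a-5p, below miR-21-3p and miR-34a-5p, are human microRNAs (miRNAs) whose reads were fewer after knockdown of ERH in K562 cells, whichever of 3 ways was used to scale the libraries. They were taken from the deposited counts for that reason: among 464 tested miRNAs, 8 (1.72%) had a negative change and an adjusted p under 0.05 under TMM factors, library size and added spike-in RNAs alike, and these are 2 of the 8. Both have a row among the 2366 human miRNA rows. Because the knockdown-against-control values chose them, those values are described below and carry no test of their own. Of the other arms of their hairpins, miR-34a-3p has a row and miR-21-5p was not analysed here.

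K562 is an established chronic myeloid leukaemia line with erythroid features. All cells expressed dCas9-KRAB, an inactive Cas9 joined to a repressor domain that silences the promoter its guide RNA finds, and each of 2 guide RNAs against ERH had its own polyclonal line. The ERH knockdown group had 0.05 µg/ml doxycycline for 5 days, and the control group was the same lines kept for 5 days without the drug, with 1 library per guide RNA in each group. Small-RNA counts do not show ERH mRNA, so its level was not checked, and cells given doxycycline without an ERH guide RNA were not analysed here, so an effect of the drug and one of ERH loss cannot be told apart.

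A primary miRNA transcript folds into hairpins that the Microprocessor, made of DROSHA and DGCR8, cuts out in the nucleus; Dicer then removes the loop and Argonaute keeps mainly 1 of the 2 arms. ERH is a small conserved protein that binds DGCR8. The other arm, often called the passenger, is mostly degraded, and miR-21-3p is the passenger of miR-21-5p, a growth-promoting miRNA that represses PDCD4 and is abundant in many tumours. miR-34a-5p is the best known miRNA target of the tumour suppressor p53, and it represses cell cycle and survival genes such as CDK6, MET and BCL2; K562 cells lack working p53.

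The hairpin and mature sequences are shown because they place each miRNA on its precursor and define its seed, the bases that pair with targets. All come from RefSeq (GRCh38.p14), 5′ to 3′. In the hairpins, capitals mark mature arms listed there, which are both arms of MIR34A and the 5p arm of MIR21. In mature sequences, capitals mark the seed (bases 2 to 8).
MIR34A hairpin: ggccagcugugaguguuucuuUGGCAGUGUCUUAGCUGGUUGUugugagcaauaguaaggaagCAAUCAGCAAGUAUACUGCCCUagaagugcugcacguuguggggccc
MIR21 hairpin: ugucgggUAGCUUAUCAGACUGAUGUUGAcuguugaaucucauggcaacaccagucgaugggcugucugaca
miR-34a-5p: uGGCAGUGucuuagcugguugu
miR-449a: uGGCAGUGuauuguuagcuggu
miR-449b-5p: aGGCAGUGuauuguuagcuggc
miR-34a-3p: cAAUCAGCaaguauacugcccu
miR-21-5p: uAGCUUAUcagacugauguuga
miR-590-5p: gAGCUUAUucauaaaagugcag
miR-449a and miR-449b-5p share the seed of miR-34a-5p, and miR-590-5p shares that of miR-21-5p. Aligned from the 5′ end, miR-449a has the same base as miR-34a-5p at 15 of 22 positions and miR-449b-5p at 13 of 22.

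Both miRNAs come from hairpins that stand alone in the genome, which matters here because the study asked whether clustered hairpins lean on ERH. MIR21 lies at chromosome 17, 59841266-59841337, plus strand (GRCh38, GENCODE 29), within an exon of a retained-intron transcript of VMP1, a gene for a membrane protein of autophagy. Its nearest annotated hairpin on that strand is MIR4729, 475.1 kb away. MIR34A lies at chromosome 1, 9151668-9151777, minus strand, in an exon of its long noncoding host MIR34AHG, and its nearest hairpin is MIR6728, 285.1 kb away. In the predicted fold (RNAfold) 64 of the 72 bases of the MIR21 hairpin are paired (88.9%), the 4th highest share among 310 hairpins with a tested miRNA, whose median is 73.6%. MIR34A pairs 84 of 110 bases (76.4%, 103rd). By fold energy per base MIR21 ranks 161st and MIR34A 227th from the most stable, at -0.481 and -0.429 kcal/mol per base against a median of -0.485. Annotated hairpins include different lengths of flank, which moves such ranks.

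The knockdown libraries held 2227374 and 2393565 miRNA reads (guide RNA 1 and 2), and the control libraries 1430434 and 2476700. Erythroid miRNAs, which K562 cells are known to make, were abundant. The 4 of the marker list had summed counts of 117413 and 121792 after knockdown, against 57002 and 96808 in controls. The 3 listed myeloid miRNAs had higher sums in every library, 226806 against 157481 in guide RNA 1 and 245234 against 272261 in guide RNA 2. With TMM factors 2 of the erythroid miRNAs rose, both of them arms of miR-144, while miR-451a fell and 1 did not pass. All 3 myeloid miRNAs fell, and they include both arms of miR-142. Over all 464, 25.6% rose and 25.2% fell. With library size 3 erythroid miRNAs rose and 2 myeloid miRNAs fell, against 58.8% and 8.84% over all. With spike-ins 2 erythroid miRNAs rose and 0 of either list fell, against 40.1% and 1.72% over all. The 6 listed miRNAs of other tissues that have rows summed to 20 and 18 reads after knockdown, against 7 and 7 in controls. Many miRNAs change sign with the scaling, and 46 of the 464 had negative values under all 3. The median log2 fold change (knockdown over control) of the 464 was 0.06 with TMM factors, which set the bulk of miRNAs level. It lay 0.44 higher with library size and 0.68 higher with spike-ins.

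miR-21-3p was a well-counted miRNA. It had 828 and 880 reads in the knockdown libraries of guide RNA 1 and 2, against 1409 and 1816 in the controls, although the knockdown library of guide RNA 1 was the deeper of its pair. In TMM-scaled CPM (counts relative to a common library total) this was 314.6 and 321.3 after knockdown and 1117.5 and 876.2 in controls. Both knockdown libraries lay far below both controls, and the knockdown libraries differed less from each other than the controls did. It stood 115th and 117th by count among the 2366 rows after knockdown and 75th and 82nd in controls.

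miR-34a-5p was near the lower limit of what these libraries could measure. It had 11 and 10 reads after knockdown, against 20 and 26 in controls, which is 4.18 and 3.65 TMM-scaled CPM against 15.9 and 12.5. Here too both knockdown libraries lay below both controls. The 95% Poisson intervals of single libraries were nevertheless wide, 5.49 to 19.7 reads for the 11 and 12.2 to 30.9 for the 20, and they overlap. So do those of guide RNA 2, 4.80 to 18.4 reads for the 10 and 17.0 to 38.1 for the 26. Such intervals cover counting error only. The filter on low counts asked for at least 4.33 CPM in 2 libraries. miR-34a-5p met it in both controls and in 1 knockdown library, and miR-21-3p met it in all 4, so miR-34a-5p could have entered the test on its controls alone.

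In group means, miR-21-3p stood at 317.9 ± 4.75 TMM-scaled CPM after knockdown and 996.9 ± 170.6 in controls (SD, n = 2), a ratio of 0.319. With library size alone the means were 369.7 ± 2.89 and 859.1 ± 178.0 CPM (SD, n = 2), a ratio of 0.430. Per 1000 spike-in reads it had 16.2 ± 3.10 reads after knockdown and 30.9 ± 0.506 in controls (SD, n = 2), a ratio of 0.524. The scale thus sets the size of the difference, and on each of the 3 the gap exceeded the spread within either group. It also sets which group varies: the controls differ most in CPM and the knockdown libraries per spike-in read.

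miR-34a-5p gave 3.92 ± 0.373 TMM-scaled CPM after knockdown and 14.2 ± 2.35 in controls (SD, n = 2), a ratio of 0.276. The library-size means were 4.56 ± 0.538 and 12.2 ± 2.46 CPM, a ratio of 0.372. Per 1000 spike-in reads it had 0.197 ± 0.016 reads after knockdown and 0.440 ± 0.010 in controls, a ratio of 0.448. Separation of this kind on all 3 scales was found for 18 of 464 tested miRNAs (3.88%), the 2 described here included. With 2 libraries in each group, the smallest two-sided p of an exact permutation test is 0.333.

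**Figure D1:**
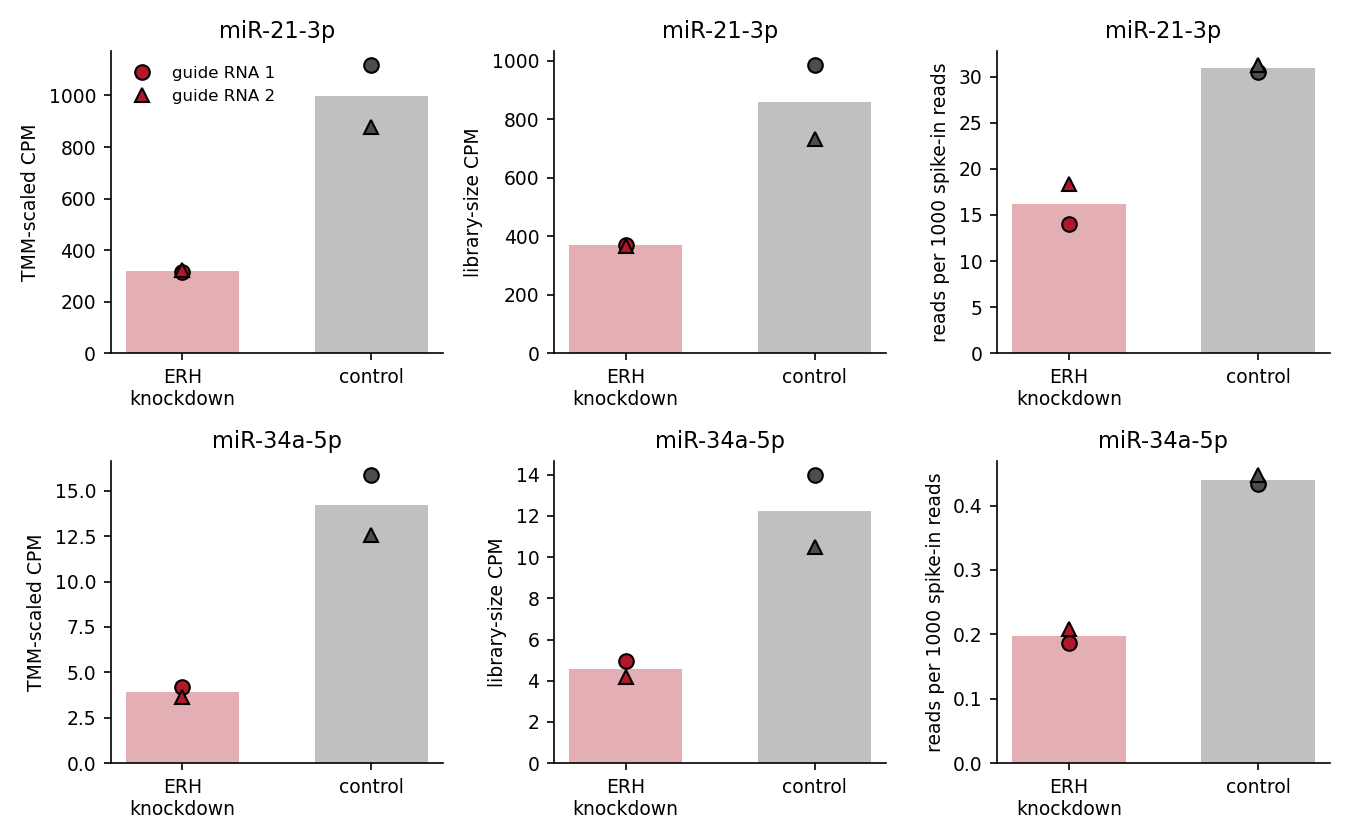
Level of miR-21-3p (top) and miR-34a-5p (bottom) in each library, as TMM-scaled CPM, library-size CPM and reads per 1000 spike-in reads, with ERH knockdown left of control; bars are means of 2 libraries and points are libraries (circle guide RNA 1, triangle guide RNA 2). On each scale both knockdown points lie below both control points, from 314.6 and 321.3 against 1117.5 and 876.2 TMM-scaled CPM for miR-21-3p to 0.186 and 0.209 against 0.433 and 0.447 reads per 1000 spike-in reads for miR-34a-5p.

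Within guide RNA 1, miR-21-3p had a log2 ratio of knockdown to control of -1.83 with TMM factors (95% counting interval -1.95 to -1.70), -1.41 with library size and -1.13 with spike-ins. Within guide RNA 2 the ratios were -1.45 (-1.56 to -1.33), -0.996 and -0.766. The TMM intervals of the guide RNAs do not overlap, so the lines differed by more than counting error. Whether they differ as lines cannot be tested with 1 library each. Its ratio was the 8th most negative of the 464 within each guide RNA, a rank that scaling cannot move within 1 pair of libraries.

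For miR-34a-5p the guide RNAs lay closer together. The log2 ratio in guide RNA 1 was -1.92 with TMM factors (95% counting interval -3.13 to -0.79) and -1.22 with spike-ins (-2.43 to -0.09). In guide RNA 2 it was -1.78 (-3.00 to -0.68) and -1.10 (-2.32 to 0.0009). The last interval reaches 0, so within guide RNA 2 a fall per spike-in read was at the edge of what 10 and 26 reads can show. It ranked 5th most negative in guide RNA 1 and 4th in guide RNA 2.

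**Figure D2:**
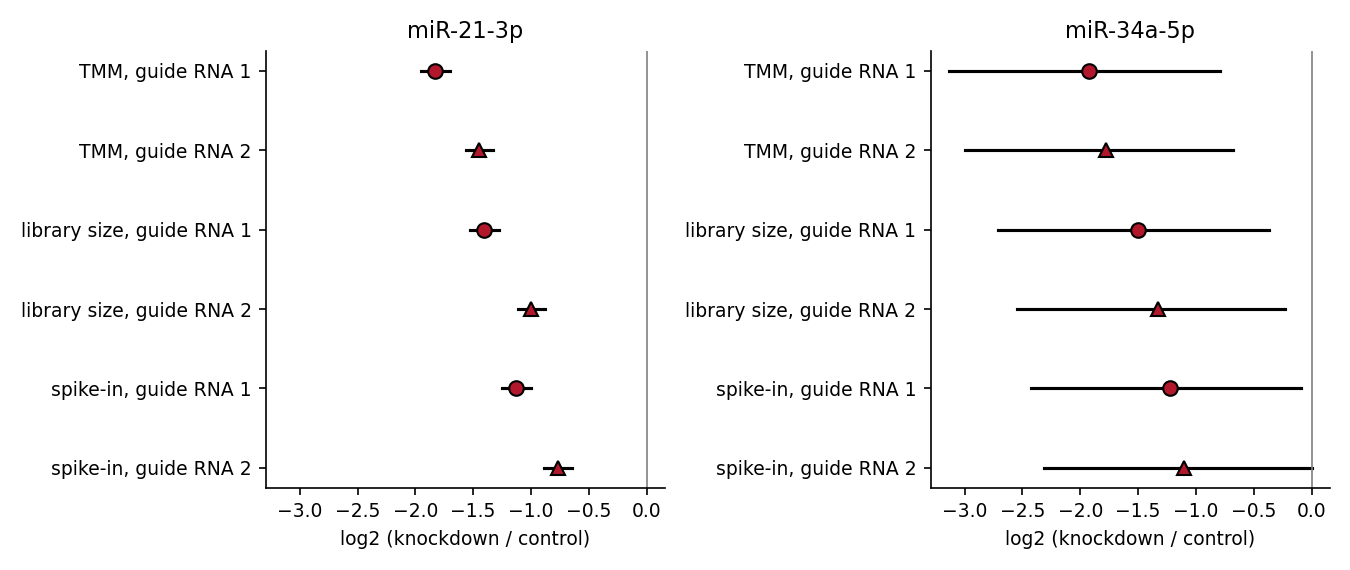
Log2 ratio of knockdown to control within each guide RNA (circle guide RNA 1, triangle guide RNA 2) under the 3 scalings, with 95% exact counting intervals as lines; the vertical line marks no difference. All 12 ratios are negative, and the interval of miR-34a-5p in guide RNA 2 with spike-ins reaches 0.0009.

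The fit across all miRNAs (edgeR, 2 libraries per group) put miR-21-3p at a log2 fold change of -1.64 ± 0.10 with TMM factors, -1.21 ± 0.10 with library size and -0.93 ± 0.38 with spike-ins (SE). For miR-34a-5p it gave -1.81 ± 0.34, -1.37 ± 0.36 and -1.16 ± 0.49. miR-34a-5p ranked 4th and miR-21-3p 7th from the most negative under each of these. The gap between them was smaller than the SE of miR-34a-5p under each scaling. The SE was largest with spike-ins. miRNA reads per spike-in read were 37.6 and 49.99 after knockdown and 31.0 and 42.6 in controls, so libraries of 1 group differed on that scale. Guide RNA 2 had the higher value in both groups. The spike-in fit did not pair the guide RNAs, so this difference enters its SE and adjusted p. A paired fit with spike-ins was not run.

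Ordered by their largest adjusted p over the 3 scalings, the last 3 miRNAs inside the limit of 0.05 were miR-223-5p (0.037), miR-212-5p (0.041) and miR-34a-5p (0.047), with miR-21-3p just before them (0.035). The first outside were miR-25-5p (0.078), miR-19a-5p (0.11) and miR-589-5p (0.14). The spike-in fit set these values for the 2 miRNAs described here. The spike-ins are a frog miR-427 and a fly miR-14, of which the fly RNA gave 11.4% and 9.24% of spike-in reads after knockdown and 12.3% and 12.2% in controls. Scaled by frog miR-427 alone, miR-21-3p stood at -0.97 ± 0.36 and miR-34a-5p at -1.19 ± 0.48, both still within the limit. Scaled by fly miR-14 alone they stood at -0.65 ± 0.54 and -0.91 ± 0.63, and neither met it (adjusted p = 0.31 and 0.23, edgeR). Their place among the 8 therefore rests on the frog spike-in. With the fly RNA alone 1 of the 464 tested miRNAs passed as a fall, so most of the 8 share this limit.

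**Figure D3:**
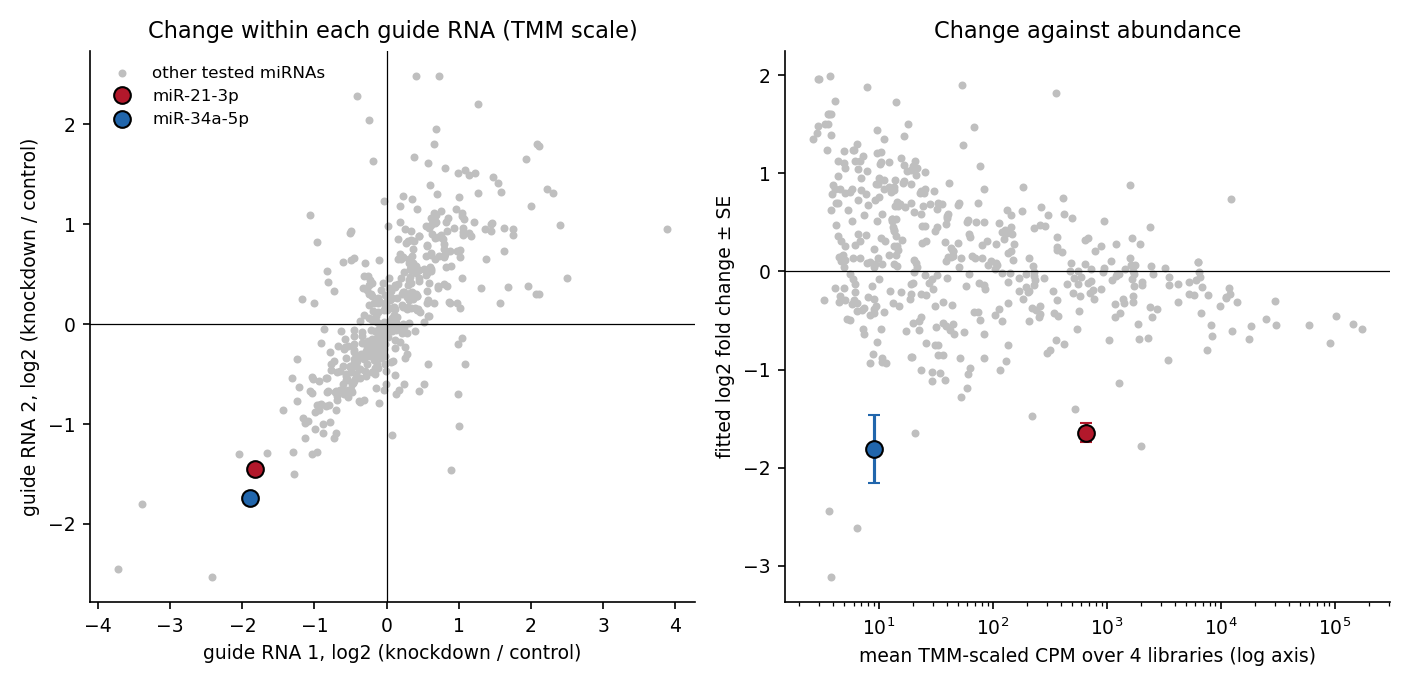
Left, log2 ratio of knockdown to control in guide RNA 2 against guide RNA 1 on the TMM scale for the 464 tested miRNAs (0.5 added to each count); right, fitted log2 fold change against mean abundance on a log axis, with SE for the 2 coloured miRNAs. miR-21-3p (red) and miR-34a-5p (blue) lie low and left in the first panel, and in the second they sit at -1.64 and -1.81 at very different abundances.

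Set beside miRNAs of like abundance, both lay at the low end, which their choice for a fall largely fixes. Among the 50 tested miRNAs closest in abundance to miR-21-3p (340.2 to 1236 TMM-scaled CPM), 17 fell and 13 rose, and the lowest stood at -1.64, just above miR-21-3p. Among the 50 closest to miR-34a-5p (7.10 to 11.4 CPM), 4 fell and 12 rose, and the lowest stood at -0.94. The SE of miR-34a-5p, 0.34, was the same as the median SE of its 50 neighbours (0.34, from 0.29 to 0.41). Over all 464, 25.2% fell and 25.6% rose with TMM factors (edgeR, adjusted p under 0.05), 8.84% fell and 58.8% rose with library size, and 1.72% fell and 40.1% rose with spike-ins. The 117 falls and 119 rises with TMM factors were 68 and 49 without knockdown replicate 1, 92 and 48 without control replicate 2, and 102 and 48 with DESeq2.

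Lone hairpins and passenger arms were then set beside the pair. Of 285 other tested miRNAs from hairpins with no neighbour within 10 kb, 47 fell and 86 rose with TMM factors, and their median was 0.17. Of these, 3 were more negative than miR-21-3p and 2 more negative than miR-34a-5p. Of 171 miRNAs from clustered hairpins, 68 fell and 33 rose, with a median of -0.16, and 2 were more negative than miR-21-3p. Rises outnumbered falls in the lone set under all 3 scalings, while the tally of the clustered set turned with the scaling. With library size 13 of the lone set fell and 187 rose (median 0.61), and 26 of the clustered set fell and 83 rose (median 0.28). With spike-ins 4 fell and 136 rose in the lone set, and 2 fell and 50 rose in the clustered set. Among 109 hairpins with both arms tested, 34 of the less abundant arms fell and 18 rose (median -0.18), and 1, miR-212-5p, was more negative than miR-21-3p. Of the more abundant arms 38 fell and 25 rose (median 0.001). Here too rises outnumbered falls under the other scalings: 14 of the less abundant arms fell and 46 rose with library size, and 2 fell and 27 rose with spike-ins, while 13 of the more abundant arms fell and 78 rose with library size, and 1 fell and 36 rose with spike-ins. The arm ratio of MIR21 was not analysed here, and that of MIR34A could not be: miR-34a-3p had 0 and 0 reads after knockdown, against 0 and 2 in controls, and a library with none is compatible with up to 3 reads, which is 1.35 and 1.25 CPM after knockdown and 2.10 CPM in the control of guide RNA 1.

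By profile over the 4 libraries the pair were close to one another, which their choice by 1 rule on these libraries fixes in part. The root-mean-square difference of their mean-centred log2 TMM-scaled CPM was 0.068, which makes miR-21-3p the nearest of 463 miRNAs to miR-34a-5p and miR-34a-5p the 2nd nearest to miR-21-3p; the median difference was 0.87. These values use a prior count of 2, which weighs on 10 to 26 reads. Without it, in a setting chosen after seeing the data, the difference was 0.134 and miR-34a-5p came 3rd, after miR-25-5p (0.114). Nearest to miR-21-3p in both settings was miR-223-5p, the less abundant arm of the granulocyte miRNA miR-223, at 0.016. It had 781 and 856 reads after knockdown, against 1343 and 1740 in controls. The count of miR-21-3p per count of miR-223-5p was 1.06 and 1.03 after knockdown and 1.05 and 1.04 in controls, almost 1 value in all 4 libraries. No scaling enters that ratio. The next were miR-25-5p (0.12), miR-1260b (0.17) and miR-212-3p (0.18), and these 4 are also the nearest to miR-34a-5p after miR-21-3p. The 5 named for each were the same on the library-size scale and without the prior count. miR-223-5p, miR-1260b and miR-212-3p are among the 8 miRNAs picked for a fall under 3 scalings, so their shared direction follows from that choice.

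The count of miR-21-3p per count of miR-34a-5p was 75.3 and 88.0 after knockdown, against 70.5 and 69.9 in controls. The pair thus kept roughly 1 proportion while both dropped, within the counting error of 10 to 26 reads. Beside miR-590-5p, miR-21-3p had 0.219 ± 0.008 reads per read of miR-590-5p after knockdown and 0.699 ± 0.121 in controls (SD, n = 2). miR-590-5p, which has the seed of the other arm, miR-21-5p, changed little with TMM factors (0.02). The ratio therefore mostly restates the fall for which miR-21-3p was picked.

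**Figure D4:**
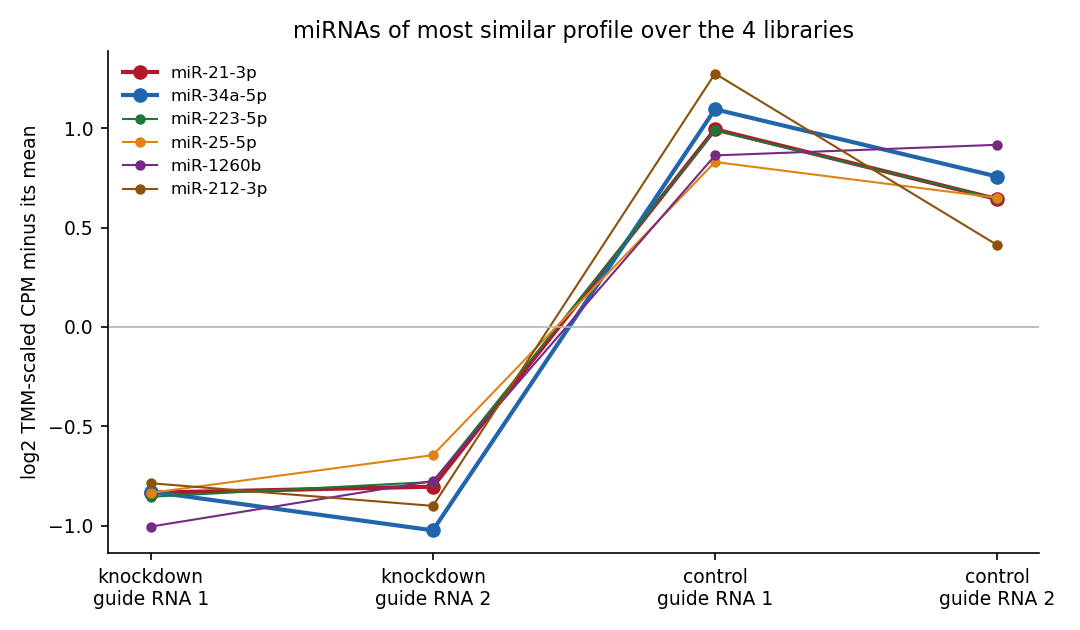
Log2 TMM-scaled CPM minus its mean over the 4 libraries, for the 2 miRNAs (thick lines) and the 4 others closest to both; lines join the values of 1 miRNA and do not stand for time. The curves of miR-21-3p and miR-223-5p lie on one another (root-mean-square difference 0.016), and every curve is lower in both knockdown libraries than in both controls.

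Of other miRNAs of these seeds or families 2 were deep enough to test, and neither passed as a fall. miR-590-5p, which has the seed of miR-21-5p, had 3872 and 3918 reads after knockdown, against 1796 and 2963 in controls. Its log2 fold change was 0.02 ± 0.06 and did not pass (adjusted p = 0.76, edgeR); it passed as a rise with library size (0.46) and did not with spike-ins (0.71). miR-34c-5p, known from ciliated and germ cells, was the one further tested member of the list of the miR-34 and miR-449 family. It had 17 and 6 reads after knockdown, against 4 and 13 in controls, so the groups overlap and the guide RNAs moved opposite ways, and its value of -0.25 ± 0.52 did not pass (adjusted p = 0.72, edgeR).

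The remaining family members were too rare to test. miR-449a had 8 and 2 reads after knockdown, against 6 and 5 in controls, and miR-449b-5p had 2 and 0 after knockdown and 1 and 0 in controls. Summed over the 3 miRNAs shown above with the seed GGCAGUG, there were 21 and 12 reads after knockdown, against 27 and 31 in controls. No mature sequence of miR-34c-5p was at hand, so its seed was not checked and its reads are left out. Its counts moved opposite ways, 17 against 4 in guide RNA 1 and 6 against 13 in guide RNA 2. The sums therefore do not show a fall of every miRNA that may carry this seed. Of the 3 summed, miR-34a-5p made up most of the control reads. In the knockdown library of guide RNA 1, miR-449a and miR-449b-5p together supplied nearly as many reads as miR-34a-5p. The 10 family rows together had 40 and 18 reads after knockdown, against 33 and 51 in controls, so on the family level the raw counts overlap.

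Among other miRNAs that p53 is known to induce, rises were at least as many as falls under each of the 3 scalings, as they were over all 464. The 9 tested include both arms of miR-192 and of miR-194, so they are not 9 independent miRNAs. Of the 9 others tested in that list 3 rose and 1 fell with TMM factors (median 0.21 against 0.06 over all 464), against 25.6% and 25.2% of all tested. With library size 5 rose and 1 fell, against 58.8% and 8.84% of all tested, and with spike-ins 5 rose and 0 fell (edgeR; 5 had an unadjusted p under 0.05, all of them the rises), against 40.1% and 1.72%. miR-194-5p rose by 0.52 ± 0.06 (adjusted p = 6.8e-06), miR-145-5p by 0.26 ± 0.06 (adjusted p = 0.0041) and miR-200c-3p, an epithelial miRNA, by 0.35 ± 0.14 (adjusted p = 0.044), and each passed as a rise with library size and with all spike-in reads too. The call of miR-200c-3p was lost when the guide RNAs were paired as a block (adjusted p of 0.077, edgeR), with DESeq2 (adjusted p = 0.29), with RLE size factors or no filter (0.078 each) and on leaving out any 1 of the 4 libraries (adjusted p = 0.065 to 0.17). That of miR-145-5p was lost without either knockdown library (adjusted p = 0.092 and 0.062) or control replicate 2 (adjusted p = 0.065), and with fly miR-14 alone (adjusted p = 0.066). miR-194-5p and miR-16-5p each come from a pair of loci whose reads cannot be split. miR-192-5p fell by 0.70 ± 0.08 (adjusted p = 6.6e-06), a value of -0.01 with spike-ins. The others did not pass with TMM factors. miR-194-3p stood at 0.98 and miR-141-3p at 0.21, and both passed as rises with library size (adjusted p = 0.0089 and 0.0011, edgeR) and spike-ins (adjusted p = 0.022 and 0.029, edgeR). The other 3 passed under none of these scalings, with TMM values for miR-34c-5p of -0.25, for miR-192-3p of -0.38 and for miR-215-5p of -0.72. The list has 2 calls, 1 in each direction, without knockdown replicate 1 and likewise without control replicate 2. In the small list of miRNAs whose cutting p53 is known to promote, miR-145-5p rose, and miR-16-5p (-0.30) and miR-16-1-3p (-0.49) fell. With library size miR-16-5p turned and passed as a rise (0.13, adjusted p = 0.018, edgeR) and miR-16-1-3p did not pass (-0.05), and with spike-ins neither passed (0.39 and 0.19).

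miR-21 and miR-34a are also known to be induced by phorbol ester and growth signalling in blood cells, as are others of a list of signal-inducible miRNAs. Of its 11 other tested members 8 fell with TMM factors and the remaining 3 did not pass (median -0.39). Over all 464, 25.2% fell and the median was 0.06. The 11 include both arms of miR-212, miR-146b, miR-221 and miR-9, so they are not 11 independent miRNAs. With library size 3 of them fell and 2 rose, against 8.84% and 58.8% over all, and with spike-ins, where 1.72% of all fell, the falls were the 2 arms of miR-212, a CREB-induced miRNA. miR-212-3p had 26 and 25 reads after knockdown, against 52 and 47 in controls. Both miR-212 arms met the same 3-scaling criterion as the pair, so their fall is no independent sign. The most abundant member, miR-146b-5p, an NF-kB target, stood at -0.69 with TMM factors, at -0.26 with library size, and at 0.02 with spike-ins. Under the last 2 scalings miR-222-3p, miR-22-3p and miR-221-3p had positive values. Without knockdown replicate 1 the list had 2 calls. miR-155-5p, another signal-induced miRNA, had 1 and 0 reads after knockdown, against 1 and 1 in controls.

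In a list of miRNAs that promote leukaemia all 7 tested members fell with TMM factors (median -0.45), against 25.2% and a median of 0.06 over all 464. They were led in abundance by miR-19b-3p, miR-20a-5p, miR-17-5p and miR-92a-3p. These come from 1 cluster, that of miR-17, so the 7 are not independent miRNAs. All 7 are well counted (SE 0.048 to 0.063 with TMM factors), so small changes in them can pass. With library size 2 of the 7 fell and miR-126-3p rose, against 8.84% and 58.8% over all. With spike-ins edgeR called 0 of the 7, and 0 had an unadjusted p under 0.05. The values of miR-21-3p and miR-34a-5p were -0.93 and -1.16 there, which is the property they were picked for.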

How the data were processed

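Small RNA from 4 libraries was sequenced after gel purification, per the labels. What the authors deposited are read counts, not normalised, 1 per mature miRNA or spike-in row. How reads were trimmed, aligned and assigned to miRNAs, and with which annotation and build, is not given in the sources used here. Each table has 2368 rows, 2 of them spike-ins, which were left out of totals.

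Groups came from the labels. The members and all lists were chosen with earlier results of these data known. Counts were filtered with filterByExpr of edgeR 4.0.16 (R 4.3.3; minimum count 10, total 15), which kept 464 miRNAs with 99.9% of reads, scaled with TMM, then compared knockdown with control by the quasi-likelihood test, a Benjamini-Hochberg adjusted p under 0.05 being a call. Log2 fold changes are knockdown over control. Spike-in scaling used the summed counts of both spike-in rows. Profiles used log2 CPM with a prior count of 2. On simulated counts for these 464 miRNAs (10 runs, 200 changed) the test recovered 85.5% of log2 changes of 1 and 63.7% of changes of 0.5, and 2.46% of calls were false. The simulated rises and falls were equal in number, so the check does not cover the choice of scaling. The counts were drawn with the dispersions that the same fit had estimated from these 4 libraries. The check therefore does not cover error in those estimates, and the low share of false calls was in part built in.

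Replicate numbers stand for guide RNAs, each with its own line, so the numbers pair the libraries by design; the correlation of same-numbered deviations was -0.109. Libraries of 1 group differed beyond sampling noise (chi-square over its degrees of freedom, 3.93 in knockdown and 10.1 in control). Nothing says that libraries came from separate cultures beyond the lines, so p-values reflect only how these libraries vary, which may be technical. All 464 names matched a hairpin gene of GENCODE 29 by name; a hairpin with another within 10 kb on its strand counts as clustered. Mature sequences matched by name for 1 of the 2 members in RefSeq. Folds came from RNAfold 2.7.2 and plots from matplotlib 3.10.9. Named miRNAs were the pair and their other arms, tested members of the seed, miR-34 family and p53 lists, the most abundant of the other lists, the 5 closest profiles, and 3 miRNAs on each side of the selection limit; miR-155-5p, miR-449a and miR-449b-5p were named though not tested. The planned ranking of hairpins by arm ratio was not used, since neither hairpin had both arms tested. Alternatives were RLE factors, library size, spike-ins, DESeq2 1.42.0, removing the filter, requiring a mean of 10 CPM, dropping the most abundant miRNA, a replicate block and leaving out each library; each spike-in alone, a crossed block and profiles without a prior count were chosen after seeing the data.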

Additional observations from a re-analysis of the deposited data

How the results depend on the processing

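miR-21-3p and miR-34a-5p kept a negative value under every alternative that gave one (15 and 14). miR-21-3p stood at -1.21 with library size, -0.93 with spike-ins, -0.97 with frog miR-427 alone and -0.65 with fly miR-14 alone, and from -1.84 to -1.47 without each library in turn. miR-34a-5p stood at -1.37, -1.16, -1.19 and -0.91 under the same 4 scalings and from -2.03 to -1.68 without each library; it drops out of the filter of at least 10 CPM. With TMM factors and guide RNA as a replicate block the pair stood at -1.64 and -1.84. Of the other miRNAs named as called in the p53 lists, the paired fit changed the call of miR-200c-3p alone. A crossed block called 241 miRNAs. The count of calls, 236, was 150 with DESeq2 (48 up, 102 down), 145 with fly miR-14 alone (144 up, 1 down) and 117 to 195 without each library (117 without knockdown replicate 1, 140 without control replicate 2). Calls among the 9 other p53-induced miRNAs were 4 (3 up, 1 down), then 6 with library size (5 up, 1 down), 5 with spike-ins (5 up, 0 down) and 2 to 3 without each library. Those among the 3 whose cutting p53 promotes were 3 (1 up, 2 down), then 2 with library size (2 up, 0 down), 1 with spike-ins, 1 with frog miR-427 and 0 with fly miR-14 alone (edgeR; 1 at an unadjusted p under 0.05). Those among the 11 other signal-inducible miRNAs were 8, then 5 with library size, 2 with spike-ins, 2 with frog miR-427, 0 with fly miR-14 (0 unadjusted) and 2 to 6 without each library. Of the 7 leukaemia miRNAs 7 were called, 3 with library size, 0 with spike-ins or either spike-in alone (0 unadjusted), and 5 to 8 without each library, where 7 or 8 were tested. The profile difference of the pair, 0.0676, was 0.134 without a prior count. Depth limits miR-34a-5p, whose 10 to 26 reads per library leave wide counting intervals, and gives no value for miR-34a-3p. The cause of these differences between scalings was not tested.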
